A study of Mus musculus with 2 samples.

Results

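The genes described here load, carry and support antigen peptides and lipids on the cell surface: the mouse major histocompatibility complex (MHC, H2) genes, the invariant chain Cd74, the class I light chain B2m, the peptide transporters Tap1 and Tap2, the loading chaperone Tapbp, the immunoproteasome subunits Psmb8, Psmb9 and Psmb10, the CD1 molecule Cd1d1, and the costimulatory genes Cd80, Cd86 and Cd40. Members were taken by gene name on the array: every name that begins with H2-, apart from the complement gene H2-Bf, and the other genes by symbol. The rule found 49 genes on 76 probes. Of these, 40 were measured, out of 21367 genes measured on the arrays, and 39 were well above background in both aortic regions.

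The study compared 2 stretches of the aorta of wild-type C57Bl/6 mice aged 16 weeks: the arch, labelled as the atherosclerosis-prone region, taken from the root down to 2 mm into the thoracic part, and the central thoracic aorta, labelled as resistant, a segment of 6 mm farther down. The vessels had been perfused with triton X-100 to strip the endothelium, and the description names smooth muscle cells, although RNA came from the whole remaining wall. RNA of 6 mice, 3 males and 3 females, was pooled for each region, and the same pair of pools was hybridised to 2 whole-genome Agilent arrays with the dyes exchanged: Cy5 marked the arch on array 1 and the thoracic aorta on array 2, with Cy3 on the other pool. There is therefore 1 pool per region, the 2 arrays count as 1 replicate, no test between regions was possible, and each ± below is the distance of either array from their mean, a technical error that holds nothing of the spread between mice.

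MHC class I molecules, a heavy chain bound to beta-2-microglobulin, are carried by nearly all nucleated cells and show peptides cut by the proteasome and pumped into the endoplasmic reticulum by the Tap transporter. Class II molecules are made mainly by dendritic cells, macrophages and B cells, where the invariant chain guards the peptide groove until H2-DM exchanges its remnant for a peptide from the endosome. Transcription of class II genes depends on the transactivator CIITA, which works through factors bound to conserved promoter elements, among them NF-Y at the Y box, an inverted CCAAT element. Interferon-gamma raises both classes.

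The class II promoters below are shown because the Y box is the element shared by that class. Those of H2-D1 and B2m are shown because they code for the heavy and the light chain of a classical class I molecule. Both promoters also hold a match to the core of that element, in H2-D1 in the opposite orientation. They are RefSeq sequences of build GRCm38.p6, 150 bases ending just before the annotated start, 5′ to 3′ on the gene's strand. Capitals mark matches to GATTGG, the Y box core, which holds an inverted CCAAT, or to its reverse complement CCAATC, which holds a CCAAT in forward direction.
H2-Aa, chr17:34287824-34287973, reverse strand: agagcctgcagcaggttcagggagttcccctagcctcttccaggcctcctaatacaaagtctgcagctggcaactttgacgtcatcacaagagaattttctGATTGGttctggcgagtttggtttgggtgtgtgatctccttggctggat
H2-Eb1, chr17:34305717-34305866, forward strand: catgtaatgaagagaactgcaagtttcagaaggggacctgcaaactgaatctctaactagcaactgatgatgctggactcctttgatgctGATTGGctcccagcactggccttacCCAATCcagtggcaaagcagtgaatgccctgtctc
H2-DMb1, chr17:34153041-34153190, forward strand: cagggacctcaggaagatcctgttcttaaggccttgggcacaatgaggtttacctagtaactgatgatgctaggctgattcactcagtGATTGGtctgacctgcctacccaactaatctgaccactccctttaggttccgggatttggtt
H2-D1, chr17:35262944-35263093, forward strand: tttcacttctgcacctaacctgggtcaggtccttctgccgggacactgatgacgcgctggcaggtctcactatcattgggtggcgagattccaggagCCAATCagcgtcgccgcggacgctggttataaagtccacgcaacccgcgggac
B2m, chr2:122147537-122147686, forward strand: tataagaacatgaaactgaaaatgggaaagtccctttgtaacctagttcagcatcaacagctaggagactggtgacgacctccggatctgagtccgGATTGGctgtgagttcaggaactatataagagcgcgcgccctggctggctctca

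In the table of promoters, which spans 250 bases before to 50 after each start, 34 members had an entry. The Y box core, counted in either orientation, was in 6 of 7 class II promoters, all but that of H2-DMa. It was in 14 of 19 class I heavy chain promoters and in 16.6% of all 27025 promoters. In H2-Aa it begins 49 bases before the start, in H2-DMb1 62 bases, and H2-Eb1 has 1 copy at 60 and another at 35. In H2-D1 it begins 53 bases before the start, as CCAATC, and in B2m 54, as GATTGG. In H2-K1, the other classical heavy chain, whose promoter is not shown above, it was found only after the start, as CCAATC. That match is counted among the 14. A match in either orientation does not separate the classes, but the orientation of this longer match, GATTGG or CCAATC, differed between them. Each of the 6 class II promoters with a match held GATTGG, and only H2-Eb1 also held CCAATC. Each of the 14 class I heavy chain promoters with a match held CCAATC, and only H2-T22 also held GATTGG. The shorter CCAAT or ATTGG was in 37.9% of all promoters, in 6 of 7 class II and in 17 of 19 class I promoters. These are matches of letters, not measured binding, and a window without a match says only that these letters are not in it.

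Neither class differed by 1.5-fold between the regions. A gene was called when it was at least 1.5-fold higher or lower in the arch on each array. By that rule 0 of 40 members were called higher, where 0.257% of all genes were, and 0 were called lower, where 0.229% of all genes were. At 1.2-fold on each array, 1 member, Cd1d1, was higher (1.52% of all genes) and 0 were lower (1.01% of all genes). The log2 ratio of arch over thoracic aorta lay within 0.2 of 0 for 38 of 40 members (95%), against 93.1% of all genes. The arrays gave opposite signs for 22 of 40 members (55%), against 45.2% of all genes. Over all genes the distance of an array from the mean of both had an SD of 0.07 and a 95th percentile of 0.13, so most member ratios lay within the range in which the same pools already varied between arrays.

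**Figure D1:**
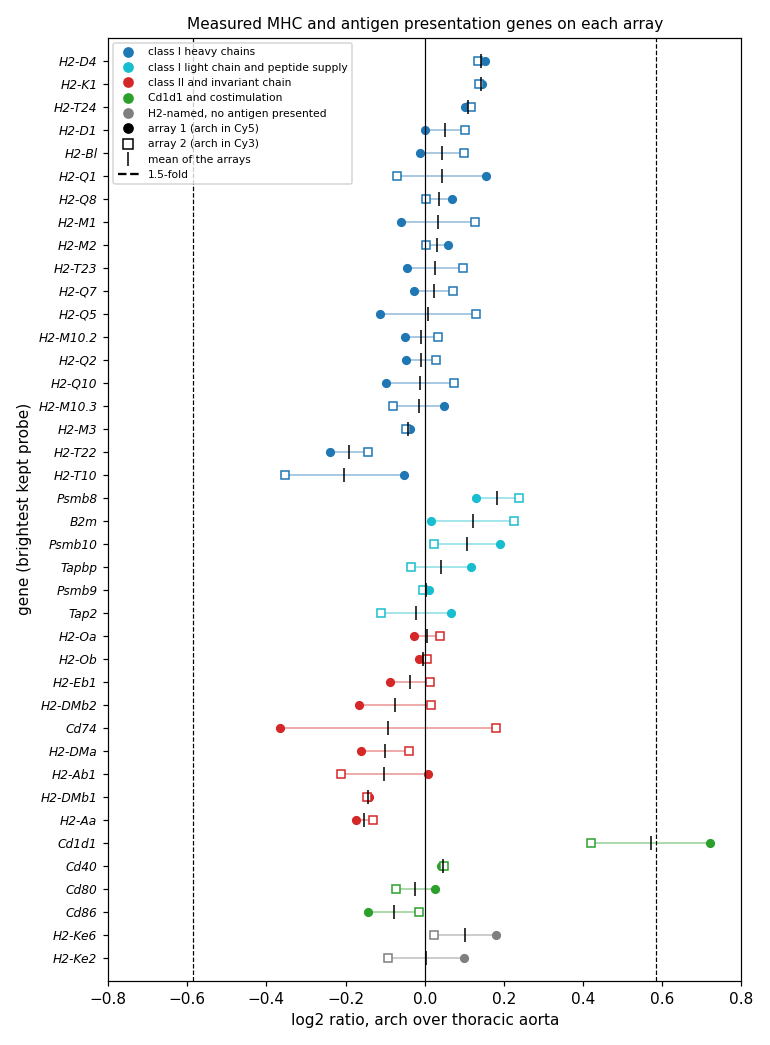
Log2 ratio of arch over thoracic aorta (horizontal axis) for each of the 40 measured genes (vertical axis), coloured by class; filled circles are array 1, open squares array 2, black ticks their mean and dashed lines 1.5-fold. Cd1d1 lies farthest from 0, at 0.72 on array 1 and 0.42 on array 2, and Cd74 has the widest gap between arrays.

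Cd1d1, a class I-like molecule that shows lipids rather than peptides to natural killer T cells, was the member farthest from 0. Signals are given as linear intensity units after normalization, which include a constant of 50 added to every spot. The arch gave 268 units on array 1 and 236 on array 2, and the thoracic aorta 163 and 177. Both arch values lay above both thoracic values. The log2 ratio was 0.72 on array 1 and 0.42 on array 2, a mean of 0.57 ± 0.15 or 1.49-fold. By array this was 1.65-fold and 1.34-fold, so array 1 alone met the 1.5-fold rule and array 2 did not. Of all 21367 genes it ranked 76 from the highest, and 99.3% had a ratio closer to 0. It was measured by 1 probe, so no second probe bears on it. The scanner software's own ratios, which add no constant, gave 0.98 and 0.57. With median centring the ratios were 0.64 and 0.29, a mean of 0.46. Markers of adipocytes and mesothelium were higher in the arch pool as well: 9 of 9 adipocyte markers lay above 0 on both arrays, with a median of 0.45 (0.28 with median centring) and a summed signal of 33516 and 32383 units in the arch against 23855 and 25292 in the thoracic aorta. Most of the adipocyte sum was Fabp4, with 23103 and 21742 units against 17149 and 18222.5. All 7 of 7 mesothelial markers also lay above 0 on both arrays, with a median of 0.41 (0.70 by the scanner software's ratios) and summed signals of 2013 and 2137 against 1503 and 1542. Of 8 adventitial fibroblast markers, 3 were higher at 1.2-fold, among them Pdgfra and Lum at 0.55 each. The median of that list was 0.05, and 2 of its genes lay below 0. CD1d is carried by several cell types, and the part of these cells in the Cd1d1 ratio was not tested. In bulk tissue, fewer cells of a type and less RNA per cell cannot be told apart.

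The costimulatory genes lay close to 0. Cd40, which receives help from T cells, gave 74.9 and 69.1 units in the arch and 72.8 and 66.8 in the thoracic aorta, a ratio of 0.05 ± 0.00. Cd80, a ligand of CD28, gave 82.3 and 72.9 against 80.9 and 76.6, a ratio of −0.02 ± 0.05. Cd86, the other CD28 ligand, gave 72.4 and 75.1 against 79.9 and 75.8, a ratio of −0.08 ± 0.06. All of these signals were near the added constant, where ratios are pulled toward 0. Without the constant, by the scanner software's ratios, Cd40 was 0.16 ± 0.05, Cd80 −0.13 ± 0.08 and Cd86 −0.32 ± 0.34, the last with −0.66 on array 1 and 0.01 on array 2.

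**Figure D2:**
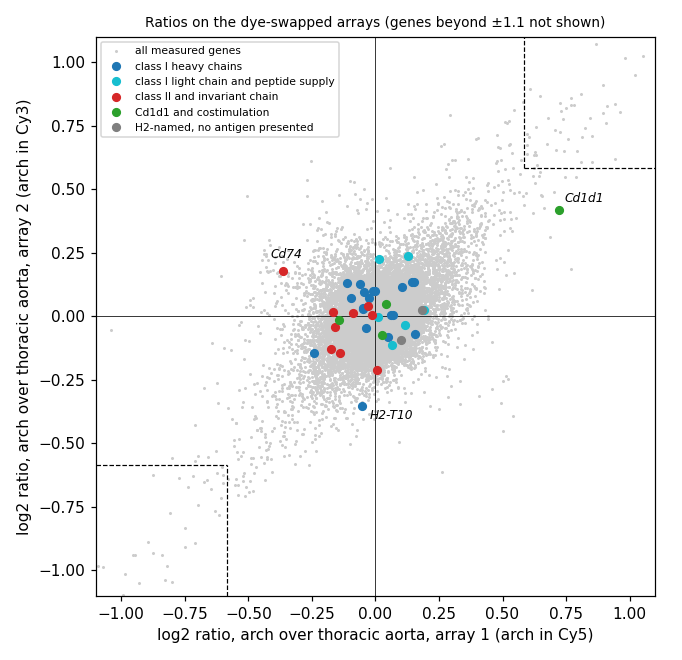
Log2 ratio on array 1 (horizontal) against array 2 (vertical) for all measured genes (grey) and the members (coloured by class); dashed corners enclose genes at least 1.5-fold different on each array. No member lies in a corner; Cd74 sits at −0.36 on array 1 and 0.18 on array 2, and H2-T10 at −0.05 and −0.35.

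The classical class I heavy chains, H2-K1 and H2-D1, which show peptides to CD8 T cells, differed little between the regions. H2-K1 gave 4350 and 4633 units in the arch and 3933 and 4215 in the thoracic aorta. The arch was the higher channel on each array by nearly the same ratio, 0.15 and 0.14 (mean 0.14 ± 0.00), and its 3 probes ran from 0.05 to 0.14, but the ratio turned to −0.03 when each array was centred on its median in place of loess. H2-D1 gave 1026 and 1105 units in the arch and 1027 and 1030 in the thoracic aorta, a ratio of 0.05 ± 0.05, and −0.12 with median centring. H2 heavy chains are close copies of each other, so a probe may bind more than the gene it is named for; cross-hybridisation was not tested.

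Among the nonclassical heavy chains, which are less variable and often serve as ligands of special T cell or NK cell receptors, H2-T10 and H2-T22 were lowest. H2-T10, a ligand of some gamma-delta T cells, gave 1002 and 978 units in the arch and 1039 and 1249 in the thoracic aorta, with ratios of −0.05 and −0.35 and a mean of −0.20 ± 0.15. Nearly all of that difference came from array 2. H2-T22, its close relative, gave 222 and 210 against 262 and 232, with ratios of −0.24 and −0.14 and a mean of −0.19 ± 0.05. Both arch values were below both thoracic values, although its other probe measured −0.06. With median centring H2-T22 was −0.31 and passed the 1.2-fold rule as lower on each array, where 3.14% of all genes did. At the other end, H2-D4, which RefSeq lists as a transcribed pseudogene, gave 268 and 241 units in the arch against 241 and 219, a ratio of 0.14 ± 0.01. H2-T24 gave 176 and 154 against 163 and 142, a ratio of 0.11 ± 0.01, with a second probe at −0.01. That second probe gave 68.1 to 75.9 units, near the added constant. These ratios of H2-D4 and H2-T24 fell to 0.02 and 0.03 with median centring.

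The remaining 13 measured class I heavy chains lay between −0.04 for H2-M3, which shows formylated peptides, and 0.04 for H2-Bl. The 6 H2-Q genes had a median of 0.02 with opposite signs on the arrays in 5 of 6, and the 5 H2-M genes a median of −0.01. H2-M2 and H2-Q7 were each printed in 10 spots per array, which shows the precision of a single spot. Over the 10 spots the H2-M2 ratio had an SD of 0.04 on array 1 and 0.07 on array 2, and averaged 0.03. For H2-Q7 the SD was 0.04 and 0.05 and the average 0.02. Thus a single-spot ratio of 0.1 is about as far from 0 as repeat spots of these genes strayed. Of the 26 heavy chains on the array, 7 were not measured: no channel was above background for H2-M10.1, H2-M10.4, H2-M10.5, H2-M10.6, H2-M9 and H2-T3, and 1 channel was for H2-M11.

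The genes that supply class I with its light chain and peptides had a median of 0.07. B2m, the light chain, gave 9161 and 10194 units in the arch and 9061 and 8715 in the thoracic aorta, with ratios of 0.02 and 0.23 (mean 0.12 ± 0.11), and its other probes read 0.21 and −0.07. The probe at −0.07 gave only 68.2 to 73.6 units, near the added constant. Psmb8, an inducible catalytic subunit of the immunoproteasome, gave 474 and 461 against 433 and 390, with ratios of 0.13 and 0.24 (mean 0.18 ± 0.05) and 0.08 on a second probe. It was the highest of this group and the arch was higher on each array. Psmb10, another such subunit, gave 1742 and 1550 against 1528 and 1526, a ratio of 0.11 ± 0.08, and Psmb9, also one, gave 215 and 204 against 213 and 205, a ratio of 0.00 ± 0.01. Tapbp, which bridges Tap and the empty heavy chain, gave 1139 and 1029 against 1050 and 1055, a ratio of 0.04 ± 0.08. Tap2, a chain of the transporter, gave 95.9 and 85.0 against 91.6 and 91.8, a ratio of −0.02 ± 0.09. With median centring the median was −0.06, and B2m, Psmb10, Psmb9 and Tapbp were below 0, from −0.13 for Tapbp to −0.05 for B2m, while Psmb8 was 0.03. Tap1, the partner of Tap2, was above background in both regions on array 1 and in neither on array 2, so no ratio is given.

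Class II genes lay below 0 mainly on array 1, and none differed by 1.2-fold on both arrays. On array 1, 8 of 9 were below 0, with a median of −0.14, and on array 2, 4 of 9 were, with a median of 0.01. Of the 9 measured, 8 had a mean ratio below 0 (7 by the scanner software's ratios, 8 with median centring); 3 (33.3%) were below 0 on both arrays, against 26.5% of all genes, 0 were above 0 on both, and 6 had opposite signs. H2-Aa and H2-Ab1 code for the chains of I-A, the main class II molecule of this strain. H2-Aa gave 135 and 137 units in the arch and 153 and 149 in the thoracic aorta, with ratios of −0.17 and −0.13 (mean −0.15 ± 0.02), and its second probe read −0.19. Both arch values were below both thoracic values. H2-Ab1 gave 801 and 739 against 797 and 855, with ratios of 0.01 and −0.21 (mean −0.10 ± 0.11); its 4 probes ran from −0.10 to −0.04. H2-Eb1, the beta chain of I-E, gave 315 and 324 against 335 and 321, a ratio of −0.04 ± 0.05. H2-Ea, its alpha chain, was above background in no channel; C57Bl/6 mice are known not to make it, and RefSeq lists the gene as a transcribed pseudogene.

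Of the class II chaperones, the chains of H2-DM lay below 0 and those of H2-DO at about 0. H2-DMb1, a chain of the peptide exchanger H2-DM, gave 241 and 227 units in the arch and 265 and 251 in the thoracic aorta, with ratios of −0.14 and −0.15 (mean −0.14 ± 0.00), the closest match between arrays in this class. H2-DMa, the other chain, gave 96.3 and 96.9 against 108 and 99.7, a ratio of −0.10 ± 0.06. H2-DMb2, a second beta chain, gave 72.4 and 84.9 against 81.3 and 84.0, a ratio of −0.08 ± 0.09. By the scanner software's ratios, without the added constant, H2-DMa was −0.24 ± 0.14, H2-DMb2 −0.34 ± 0.34 (−0.67 on array 1 and 0.00 on array 2), and H2-Aa −0.24 ± 0.05. The chains of H2-DO, which restrains H2-DM, were level: H2-Oa gave 93.0 and 102 against 94.8 and 99.5, a ratio of 0.01 ± 0.03. H2-Ob gave 67.2 and 71.2 against 67.8 and 70.9. It was well above background in the thoracic aorta on both arrays, but in the arch on array 2 only. Its mean thoracic signal was 1.00-fold the arch's, which leaves no difference to read.

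Cd74, the invariant chain, had opposite signs on the arrays. It gave 1044 units in the arch against 1344 in the thoracic aorta on array 1, and 1251 against 1104 on array 2. The Cy3 channel was thus the brighter on each array, with ratios of −0.36 and 0.18 and a mean of −0.09 ± 0.27. That distance was larger than those of 99.7% of all genes, so its mean carries no direction. With median centring both ratios were negative, −0.45 and −0.07. Dye and array cannot be told apart for a single gene here. Ciita, the class II transactivator, is on the array only under its older symbol C2ta, outside the naming rule; it gave 82.1 and 77.5 units in the arch and 82.8 and 84.8 in the thoracic aorta, a ratio of −0.07 ± 0.06. H2-Eb2 likewise appeared under another name, with 2 probes at 0.02 and −0.01.

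Set side by side, the median ratio was 0.03 for the 19 class I heavy chains and −0.09 for the 9 class II genes, against 0.00 over all genes, a difference of 0.12. The ranges overlapped: class I ran from −0.20 to 0.14 and class II from −0.15 to 0.01. On array 1 the medians were −0.03 and −0.14, and on array 2 they were 0.07 and 0.01, so each class shifted with the array by about as much as the classes differed. Class II was the lower class on each array, by 0.11 and 0.07. With median centring the difference was 0.05 and both medians were below 0, −0.12 for class I and −0.18 for class II, while the median of all genes was −0.04. Median centring takes no account of spot brightness, as loess does. The class I heavy chains were the brighter class, with a median log2 intensity of 9.35, against 7.16 for class II and 7.01 for all genes. The part of brightness in the smaller difference was not tested. Members are not replicates of a region, and no test of the difference between the classes was made.

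**Figure D3:**
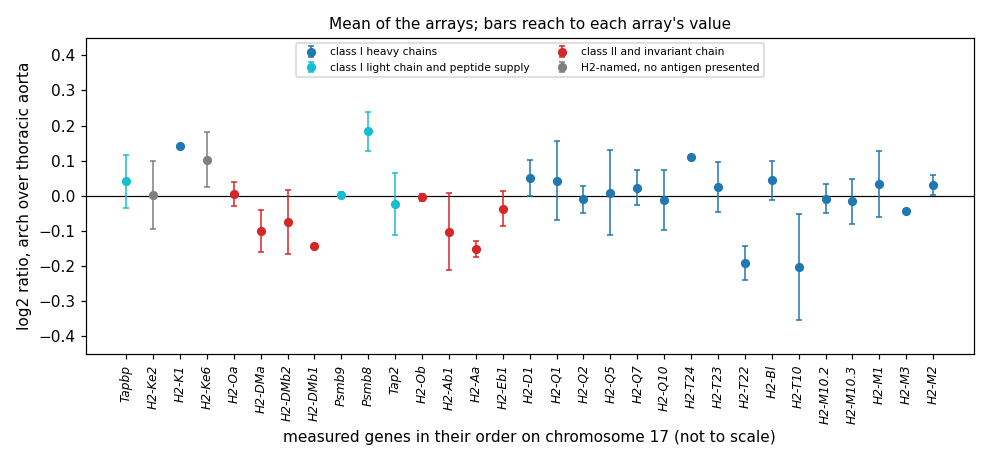
Mean log2 ratio of arch over thoracic aorta (vertical axis) for measured members in their order on chromosome 17 (horizontal axis, not to scale), coloured by class; bars reach to the value on each array. H2-Ab1, H2-Aa and H2-DMb1 lie below 0 near Psmb8 at 0.18, with H2-Oa at 0.01 and H2-Ob at −0.00 in the same stretch. H2-T22 and H2-T10 lie at −0.19 and −0.20.

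RefSeq places 42 of the 49 members on chromosome 17, and the order of 40 of them could be read. H2-DMa, H2-DMb2 and H2-DMb1, which adjoin, measured −0.10, −0.08 and −0.14, and H2-Ab1 and H2-Aa, also neighbours, −0.10 and −0.15. The class II genes next to these groups did not share such ratios: H2-Oa, beside H2-DMa, measured 0.01, and H2-Eb1, beside H2-Aa, −0.04. Psmb9, Tap1, Psmb8, Tap2 and H2-Ob lie between the H2-DM genes and H2-Ab1, inside the class II region. Of them Psmb9 measured 0.00, Psmb8 0.18, Tap2 −0.02 and H2-Ob −0.00. No test of neighbours was made. The H2-Ke2 and H2-Ke6 genes flank H2-K1, carry H2 names for their position and present no antigen. H2-Ke2, now Pfdn6, gave a ratio of 0.00 ± 0.10 and H2-Ke6 one of 0.10 ± 0.08, beside 0.14 ± 0.00 for H2-K1.

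Genes of the same pathways that are not members also gave 0 calls at either fold. Over all genes, 0.257% were called higher and 0.229% lower at 1.5-fold, and 1.52% and 1.01% at 1.2-fold. At such shares, 0 calls in short lists do not set these pathways apart. Among 13 measured of 14 genes for class II processing and transcription the median was −0.05 (−0.16 with median centring, where 12 of 13 were below 0), with 0 above 0 on both arrays and 5 below. Cd83, which holds class II at the surface of dendritic cells, was lowest: 189 and 179 units in the arch against 226 and 219, a ratio of −0.27 ± 0.02, just short of 1.2-fold on array 1. Ctss, the protease that trims the invariant chain, gave 1646 and 1520 against 1956 and 1794, a ratio of −0.24 ± 0.01. Both genes had each arch value below each thoracic value. Ifi30, a thiol reductase of the loading compartment, measured −0.22 ± 0.09. Of the factors that bind the class II promoter, Rfx5 measured 0.02, Rfxap 0.00, Rfxank 0.01 and Nfyb 0.01, and Creb1 −0.12 ± 0.03, with −0.09 and −0.14 on the arrays. Ctsd, an endosomal protease, was highest at 0.14 ± 0.15.

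The class I assembly list (14 measured of 15) had a median of 0.00 and ran from −0.08 for Psmb7, a constitutive proteasome subunit, to 0.15 for Psme1, a proteasome activator. Interferon-gamma signalling (12 of 12) had a median of 0.06, with 3 above 0 on both arrays and 1 below. With median centring these medians were −0.16 for the assembly list and −0.06 for interferon-gamma signalling. The ends of the latter list were Jak2, a kinase of this pathway, at −0.12 and Ifi47, an interferon-induced GTPase, at 0.17. All 5 measured MHC-like genes of 8 lay below 0, with a median of −0.06 (−0.19 with median centring), from Procr, the protein C receptor, at −0.17 to Fcgrt, the neonatal Fc receptor, at −0.02. Costimulation and its receptors (4 of 9) had a median of −0.03 (−0.15 by the scanner software's ratios), from Icosl, the ligand of ICOS, at −0.22 to Cd274, which codes for PD-L1, at 0.12.

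Markers of the cells that carry class II were read beside it. All 8 of 8 general leukocyte markers were below 0 on both arrays, with a median of −0.18, from Cd48 at −0.27 to Rac2 at −0.06; the median was −0.26 with median centring and also by the scanner software's ratios. Their summed signal was 1590 and 1568 units in the arch and 1789 and 1776 in the thoracic aorta. Of 15 macrophage markers 11 were below 0 on both arrays and 0 above, with a median of −0.09 (−0.14 by the scanner software's ratios and −0.24 with median centring) and summed signals of 26541 and 24388 against 29732 and 31278. Lyz2 alone made up most of these sums, with 20360 and 18256 units against 22857.5 and 24475. Tyrobp, an adaptor of myeloid receptors, passed the 1.2-fold rule as lower. Dendritic cell markers (7 measured of 10) had a median of −0.02 (0.05 by the scanner software's ratios), with summed signals of 1051 and 1059 against 1076 and 1103. Clec9a and Cd209a were above background in no channel, and Cd83 is on this list too. B cell markers (8 of 8) had a median of 0.02 and summed signals of 1042 and 1075 against 995 and 979, with Ms4a1, which codes for CD20, at 0.33 and past the 1.2-fold rule as higher, and Pax5, a B cell transcription factor, at −0.16. T cell and NK cell markers (11 of 12) had a median of −0.03 (−0.09 by the scanner software's ratios), and thymus markers (6 of 8) one of 0.06 (−0.00 with median centring). The part of leukocyte content in the class II ratios was not tested.

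**Figure D4:**
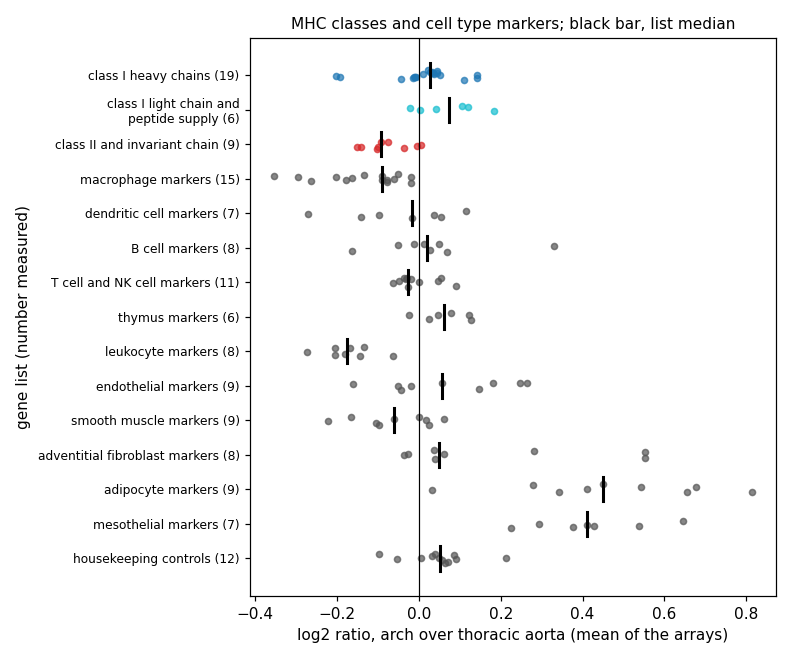
Mean log2 ratio of arch over thoracic aorta (horizontal axis) of each measured gene (points), by gene list (vertical axis, number measured in brackets); black bars are list medians. Class II (−0.09) lies beside macrophage (−0.09) and smooth muscle markers (−0.06). Leukocyte markers (−0.18) lie lower, and dendritic cell (−0.02) and B cell markers (0.02) higher. Adipocyte (0.45) and mesothelial markers (0.41) lie to the right.

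Of the wall's own cells, 9 of 9 smooth muscle markers were measured, with a median of −0.06 and 6 below 0 (−0.17 and 9 with median centring), and 8 of 8 adventitial fibroblast markers, with a median of 0.05 (−0.12 with median centring) and 3 higher at 1.2-fold. Of 10 endothelial markers 9 were measured despite the perfusion, with a median of 0.06 (0.14 by the scanner software's ratios). The 12 housekeeping controls had a median of 0.05, which was −0.11 with median centring. The median spot signal was 87.1 to 97.1 over the 4 channels, beside a median local background of 40 to 48. Between 71.3% and 81.5% of gene spots were well above background.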

How the data were processed

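RNA pools of 2 aortic regions were compared on 2 dye-swapped arrays. Per the labels and the submitters' processing notes, the authors scanned them with Agilent Feature Extraction 9.1.1.1; the deposited files hold mean and local background intensity per spot and dye, the log10 ratio of Cy5 over Cy3 after that software's background and dye correction, and flags. No genome build is named. The deposited value table, also log10, matched the scanner ratios, turned to arch over thoracic, for 99.9% of the features of either array (within 1e-05 on the log2 scale), with medians of 0.

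Intensities were corrected with normexp (offset 50) and loess within each array (limma 3.58.1, R 4.3.3), with control spots at weight 0; per-channel signals were then scaled with Aquantile. The sign of array 2 was turned, 20 and 4 outlier spots were dropped, and spots of a probe were averaged. Of 41150 probes, 30521 were kept because both arrays flagged them well above background in 1 region or both; a gene took its brightest kept probe. The procedure was also run on simulated data in which brighter spots were changed by 1.5-fold or more. That run does not bear on dim genes or on smaller ratios, such as most of those given here. Probes were named through RefSeq by accession (22803), by name or synonym (10215), by the file's name (8080), or by the member rule (76).

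The 1.00-fold given for H2-Ob is the ratio of its own mean signals, since its arch signal exceeded the lowest signal flagged well above background on each array. Every member is accounted for. Values per channel are given for class II, the classical heavy chains, the supply and costimulatory genes, called members and the 4 highest and lowest members. Of each pathway list the highest and lowest gene is named, and Ctss, Ifi30, the Rfx genes, Nfyb, Creb1, Cd48, Rac2, Lyz2, Tyrobp, Fabp4, Ms4a1 and Pax5 were named after their values were seen. The members and lists were chosen with earlier results of these data known. Alternatives changed the offset, normalization, source, probe rule, filter, fold and array.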

Additional observations from a re-analysis of the deposited data

How the results depend on the processing

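The count of members called was 0 with offset 0, scanner software ratios, the value table, median centring, the mean over kept probes, either filter and 2-fold; it was 1 (Cd1d1) at 1.3-fold and 1 at 1.2-fold, and 0 to 1 with a single array, where array 1 alone gave Cd1d1. The difference between class I and class II, 0.12, was 0.067 to 0.11 with a single array, 0.055 with median centring and 0.09 to 0.13 otherwise. Median centring also moved the class I median from 0.03 to −0.12 and the median of all members from 0.00 to −0.087; by array the class I median was −0.03 to 0.07 and that of class II −0.14 to 0.01. The cause was not tested. Of 359 values of single genes under 9 alternatives, 301 moved by less than the SD over the 2 arrays and 58 by more. Over all genes, calls at 1.5-fold were 55 higher and 49 lower, 117 and 104 with offset 0, 152 and 128 with scanner ratios, and 28 and 75 with median centring. Dim genes such as Cd40, Cd80 and H2-Ob lie near the offset, which limits what their ratios can show. No paired analysis was possible because the study has 1 group of 2 arrays, whose numbers are only names.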
